A study of Homo sapiens with 12 samples.

Results

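Expressed small nucleolar RNAs (snoRNAs) were described in 4 lines of acute myeloid leukaemia cells (KG-1a, MOLM-14, MV4-11 and OCI-AML3), each exposed to pioglitazone at 10 µM, to darglitazone at 10 µM or to the solvent DMSO for 12 h. All 4 are established human lines, each grown from 1 patient's leukaemia, so the line stands in for the replicate and no line was treated more than 1 time per compound. Pioglitazone and darglitazone are thiazolidinediones, a class of drugs that bind the nuclear receptor PPARG. Total RNA was depleted of ribosomal RNA and sequenced from strand-marked libraries, 1 library for each line and treatment, 12 in all. A gene was a member if GENCODE 29 gives it the snoRNA gene type and its transcripts summed to an estimated count of 10 or more in at least 6 of the 12 libraries. This rule kept 86 of the 925 snoRNA genes in the table, among 57865 genes in all: 52 of 209 SNORA genes, 30 of 302 SNORD genes, 2 of 4 SCARNA-named genes and 2 of 410 other snoRNA entries. The members were thus chosen by their counts in these libraries, and their levels are given as a description.

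SnoRNAs are short stable RNAs of the nucleolus, and most of those in humans are cut out of introns of host genes after splicing. Box H/ACA snoRNAs, whose genes are named SNORA, pair with ribosomal RNA and guide the conversion of uridine to pseudouridine by the enzyme DKC1. Box C/D snoRNAs, named SNORD, guide 2'-O-methylation by the methyltransferase FBL. A few do not guide modification but take part in cutting the ribosomal RNA precursor: the C/D RNA U3 (SNORD3 genes), which has its own promoters, and the H/ACA RNA U17 (SNORA73A and SNORA73B) are needed to make the small ribosomal subunit, and U8 (SNORD118) acts on the large one. SCARNA genes give related RNAs of the Cajal body that act on spliceosomal RNAs.

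The results turn on the 6 sequences printed here, taken from GENCODE 29 on GRCh38. The first pair are the short forms of U3, from chr17:19188016-19188232 (SNORD3A, plus strand) and chr17:19061912-19062128 (SNORD3B-1, plus strand), shown because a single base separates them. That base is in capitals.
SNORD3A: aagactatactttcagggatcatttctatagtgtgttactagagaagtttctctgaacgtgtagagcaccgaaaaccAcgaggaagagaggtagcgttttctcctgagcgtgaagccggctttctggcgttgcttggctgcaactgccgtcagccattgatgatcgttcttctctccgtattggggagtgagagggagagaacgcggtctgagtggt
SNORD3B-1: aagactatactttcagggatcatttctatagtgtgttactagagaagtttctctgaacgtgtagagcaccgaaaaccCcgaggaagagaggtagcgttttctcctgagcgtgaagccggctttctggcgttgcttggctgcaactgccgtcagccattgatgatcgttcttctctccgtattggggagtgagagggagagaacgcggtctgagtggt
The other 4 are shown because they differed between the lines and their hosts' values are given beside them: SNORA47 (chr5:77080434-77080571, minus strand, in an intron of ZBED3), SNORA74B (chr5:173020728-173020928, plus strand, in an intron of ATP6V0E1), SNORA26 (chr4:52713249-52713370, plus strand, in an intron of DANCR) and SNORD17 (chr20:17962710-17962946, minus strand, in an intron of SNX5). Capitals mark the letters ACA that stand 3 bases before the end of SNORA26, and the C box TGATGA and D box CTGA of SNORD17. SNORA47 and SNORA74B have no ACA at exactly that place in the annotated sequence, but each has one shifted from it by a single base.
SNORA47: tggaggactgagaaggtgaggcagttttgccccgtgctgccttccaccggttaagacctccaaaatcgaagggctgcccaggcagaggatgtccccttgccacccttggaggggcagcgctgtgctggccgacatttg
SNORA74B: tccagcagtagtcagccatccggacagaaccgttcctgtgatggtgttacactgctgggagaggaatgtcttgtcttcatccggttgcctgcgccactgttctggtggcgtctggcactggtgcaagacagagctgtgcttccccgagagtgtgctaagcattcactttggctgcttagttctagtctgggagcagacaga
SNORA26: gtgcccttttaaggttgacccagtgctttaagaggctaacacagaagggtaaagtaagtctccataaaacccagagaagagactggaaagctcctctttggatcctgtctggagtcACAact
SNORD17: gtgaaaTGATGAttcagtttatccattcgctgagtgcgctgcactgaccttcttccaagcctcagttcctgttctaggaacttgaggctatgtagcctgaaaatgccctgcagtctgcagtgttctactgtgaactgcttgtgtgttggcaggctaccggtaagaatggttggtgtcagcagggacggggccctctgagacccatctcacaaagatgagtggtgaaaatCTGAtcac
Searched on the transcribed strand, the ACA stood 3 bases before the annotated end of 41 of the 52 SNORA members, against 66.0% of all annotated SNORA genes. An ACA shifted from that place, as in SNORA47 and SNORA74B, was not counted. A D box lay within the last 25 bases of 26 of the 30 SNORD members, against 89.7% of all annotated SNORD genes, and a C box within the first 25 bases of 19, against 65.2%.

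The libraries held between 1.095 M and 64.2 M estimated counts. The shallowest was the OCI-AML3 pioglitazone library and the deepest the OCI-AML3 DMSO library, so the floor of 3 counts was 2.63 CPM in the first and 0.0447 CPM in the second (counts-per-million, CPM, with library sizes scaled by TMM). In the OCI-AML3 pioglitazone library 41 of the 86 members had 10 counts, against 58 to 85 in the other 11. An annotated entry derived from ribosomal RNA took 23.5% of the counts of the KG-1a pioglitazone library and 6.17% of those of the OCI-AML3 pioglitazone library, against 0.0421 to 0.542% elsewhere. In the KG-1a darglitazone library, 6 genes specific to MV4-11 stood at a median of 4.10% of their MV4-11 level. In the OCI-AML3 pioglitazone library, 80 genes specific to KG-1a stood at 1.97% of their KG-1a level. In the MV4-11 DMSO library, 5 genes specific to MOLM-14 stood at 2.02% and 12 specific to OCI-AML3 at 1.46%, and in the MV4-11 darglitazone library the MOLM-14 genes stood at 1.38%. The other library pairs were below 1%. The leukocyte gene PTPRC (100.02 to 541 CPM) and the myeloid genes CD33 (34.2 to 170 CPM) and SPI1 (91.1 to 235 CPM) were present in every library, and the erythroid gene HBB was at 0 in all 12. Of the other markers of unrelated cell types, KRT18 reached 47.9 CPM and PAX5 65.2 CPM in MOLM-14, and CD3E 14.6 CPM in KG-1a. Their part in the results was not tested.

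Levels of the members spanned several orders of magnitude, and a few genes carried most of each class. Per kilobase of the counted transcripts, the SNORA members with the highest mean over the 12 libraries were SNORA73A (2528 CPM per kb), SNORA73B (1984), SNORA48 (755), SNORA57 (174) and SNORA7A (165). The first pair are the U17 RNAs, and the other 3 are guides of ribosomal RNA pseudouridylation. The SNORD members with the highest means on the same scale were SNORD3A (7051 CPM per kb), SNORD13 (1092), SNORD3B-1 (774), SNORD17 (323) and SNORD10 (178). SNORD13 is the U13 RNA, a C/D snoRNA that directs acetylation of 18S rRNA. SNORA73A, SNORA73B and SNORA48 made up 72.9 to 82.8% of the summed SNORA level, and SNORD3A, SNORD3B-1 and SNORD13 made up 86.8 to 94.3% of the summed SNORD level, depending on the library. At the other end, the weakest members had a sixth-highest count of 10 (SNORA37, SNORD8, SNORD19), and the strongest genes that missed the rule had one of 9.82 (SNORA77B) and 8 (SNORD12B). In bulk RNA, fewer cells with an RNA and less of it per cell cannot be told apart.

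The classes differed in how many of their genes were seen. Of the annotated SNORA genes 24.9% were members, and of the annotated SNORD genes 9.93%. Members of the SNORD class were long for their kind: 14 of the 36 SNORD genes of 100 bases or more were members, against 16 of the 266 shorter ones. The median length was 95 bases for SNORD members and 78.5 for the other SNORD genes, while the SNORA members had a median of 135 bases against 133 for the other SNORA genes. Standard total RNA libraries lose short fragments, and its part in these shares was not tested. A gene on the same strand spans 80 of the members, from 59 distinct host genes. Of these members, 47 lie within an intron of every host transcript and 33 overlap an exon of at least 1 host transcript, where reads of the host and of the snoRNA cannot be told apart. In total RNA, unspliced host RNA can give reads in introns as well. Its part in the counts of the 47 was not tested. For 17 members more than 50% of the 25-base words are shared with another snoRNA gene, and their counts are uncertain for that reason. These include 4 SNORD3 genes, 4 SNORD116 copies, SNORD60, SNORA10, SNORA7A and SNORA7B.

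The deposited U3 counts fell to different gene copies in different lines. The copies are nearly the same: over their short transcripts SNORD3B-1 and SNORD3B-2 both differ from SNORD3A by A78C, SNORD3C differs by G108A, and SNORD3D by A4G, C53T and A78C, counting from 1 at the 5' end and giving the base of SNORD3A first. The counts of the short transcripts were shared out between SNORD3A and SNORD3B-1 as follows. In OCI-AML3, SNORD3B-1 took 18.98% of their sum under pioglitazone, 19.4% under darglitazone and 19.9% under DMSO. In MV4-11 it took 17.9% under pioglitazone, 18.5% under darglitazone and 18.9% under DMSO. In MOLM-14 it took none of 18094, 9478 and 29424 counts under pioglitazone, darglitazone and DMSO, which allows shares of up to 0.0166%, 0.0317% and 0.0102%. In KG-1a the pioglitazone library held 0.0186 estimated counts of SNORD3B-1, below the floor of 3 counts, which allows a share of up to 0.0112%. The KG-1a shares were 0.401% under darglitazone and 0.0240% under DMSO, from 41.2 and 3.99 counts.

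The mean share was 19.4 ± 0.474% in OCI-AML3, 18.4 ± 0.505% in MV4-11, 0.142 ± 0.225% in KG-1a and 0% in MOLM-14 (SD, n = 3 libraries each). The ranges of the first 2 lines, 18.98 to 19.9% and 17.9 to 18.9%, lay far above those of the other 2. The 95% Wilson intervals of the OCI-AML3 libraries ran from 17.9 to 20.1% under pioglitazone, from 18.999 to 19.9% under darglitazone and from 19.7 to 20.2% under DMSO, and cover counting error alone. Under the drugs the share moved little: the means over the 4 lines were 9.21% under pioglitazone, 9.59% under darglitazone and 9.70% under DMSO, and within OCI-AML3 the 3 values lay within 1 percentage point of each other. Where all transcripts of both genes were summed, the OCI-AML3 and MV4-11 libraries gave 18.03 to 20.4% and the MOLM-14 and KG-1a libraries 0.179 to 0.643%. The KG-1a darglitazone library, with the highest share of its line, is the one in which MV4-11-specific genes stood at 4.10% of their MV4-11 level, and the part of that in the 41.2 counts behind the share was not tested. SNORD3B-1 and SNORD3B-2 have the same short sequence, and the short SNORD3B-2 transcripts were not analysed here, so the SNORD3B-1 counts cannot be told apart from counts of SNORD3B-2. Without the reads, RNA from SNORD3B-1, RNA from SNORD3A genes with another base at position 78, and the way the counting assigned reads that fit both copies cannot be told apart either.

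**Figure D1:**
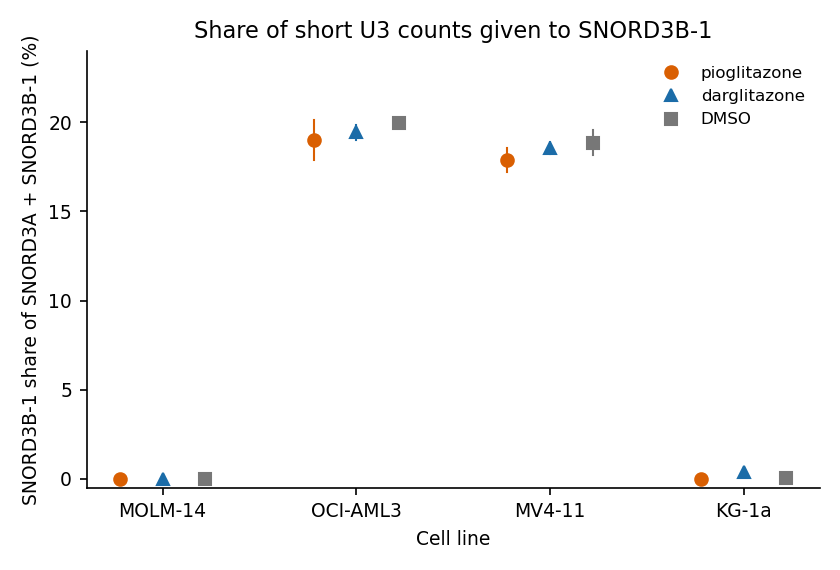
Share of the short U3 counts of SNORD3A and SNORD3B-1 that fell to SNORD3B-1, in percent, for each of the 12 libraries, by cell line; vertical lines are 95% Wilson intervals. The 6 OCI-AML3 and MV4-11 libraries sit between 17.9 and 19.9%, and the 6 MOLM-14 and KG-1a libraries at or below 0.401%, whichever treatment they had.

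The gene-level counts showed the same split, with the same limit on which copy made the RNA. SNORD3B-1 stood at 754, 310 and 239 CPM in OCI-AML3 and at 293, 324 and 253 CPM in MV4-11 under pioglitazone, darglitazone and DMSO. In MOLM-14 it stood at 4.87, 6.61 and 5.06 CPM and in KG-1a at 4.83, 12.5 and 5.76 CPM. Every OCI-AML3 and MV4-11 library was above every MOLM-14 and KG-1a library. SNORD3B-1 was higher in OCI-AML3 than in the mean of the other 3 lines by 4.18 ± 0.32 on the log2 scale (SE; edgeR quasi-likelihood test, Benjamini-Hochberg adjusted p = 2.88e-05) and higher in MV4-11 by 3.51 ± 0.31 (edgeR adjusted p = 6.97e-05). SNORD3A, which carried most of the U3 counts, ranged from 798 to 3219 CPM: it stood at 3219, 1254 and 934 CPM in OCI-AML3, at 1330, 1399 and 1065 CPM in MV4-11, at 798, 1028 and 1000 CPM in MOLM-14 and at 2704, 2137 and 1882 CPM in KG-1a under pioglitazone, darglitazone and DMSO. Apart from the OCI-AML3 pioglitazone library, the KG-1a libraries were the highest. SNORD3B-2, summed per gene and not split by transcript length, followed another order: 13.98, 15.7 and 17.0 CPM in MOLM-14, 13.1, 12.9 and 8.10 CPM in OCI-AML3, 7.74, 4.23 and 4.34 CPM in MV4-11, and 0.402, 0 and 0 CPM in KG-1a. The KG-1a libraries did not overlap with any other line, and 2 of the 3 were listed at 0. No KG-1a library reached 10 counts of SNORD3B-2, so it became a member through the other lines and its p-value is not given.

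Differences between the lines were called for 25 of the 84 members that passed the filter on low counts (edgeR quasi-likelihood test of the 3 line terms, Benjamini-Hochberg over 15424 genes), or 29.8%, beside 72.6% of all genes tested. SNORD19 and SNORA37 were below the filter. The 25 were 14 SNORA, 9 SNORD and both SCARNA members. The median SD within a line was 0.813 on the log2 scale for the members and 0.355 for all genes tested. The members' share was also lower at each level of expression. With a mean log2 CPM under 1, 7 of 34 members were called (20.6%), beside 59.2% of all genes, at a median SD within a line of 1.03 for members and 0.932 for all genes. From 1 to 2 the shares were 35.3% of members and 65.3% of all genes, from 2 to 3 they were 30.8% and 69.5%, from 3 to 5 they were 27.3% and 76.7%, and at 5 or more they were 55.6% and 82.8%. In these higher bins the members' median SD within a line was well above that of all genes. It was 0.904 against 0.666 from 1 to 2 and 0.744 against 0.473 from 2 to 3. From 3 to 5 it was 0.661 against 0.294, and at 5 or more 0.506 against 0.198. The part of this spread in the lower shares was not tested. Since the 3 libraries of a line carry different treatments and nothing says that they are separate cultures, these p-values measure the spread between libraries only. Without the KG-1a libraries 10 members were called, and with counts thinned to the shallowest library 12. The shares of all genes called in those settings are not given, so the drops cannot be read as particular to the members.

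KG-1a differed most: against the mean of the other 3 lines 28 of the 84 members were called, beside 54% of all genes, 21 of them higher (26.9% of all genes were called higher) and 7 lower (27.2%). Without the KG-1a DMSO library 14 members were called. The direction differed by class, with 16 SNORA members higher and 2 lower of 51 tested, and 3 SNORD members higher and 5 lower of 29. OCI-AML3 gave 13 called members (42.3% of all genes), MOLM-14 9 (41.2%), 3 higher and 6 lower (23.5% and 17.7% of all genes), and MV4-11 4 (40.9%), 2 higher and 2 lower (23.3% and 17.5%). These last 2 counts depended on single libraries: without the MOLM-14 pioglitazone library 3 members were called for MOLM-14, without its darglitazone library 4, and without the OCI-AML3 DMSO library 21. For MV4-11 the count was 2 without its pioglitazone or its darglitazone library and 7 without the OCI-AML3 DMSO library. The shares of all genes called without these libraries, that for KG-1a included, are not given. Whether the members or all genes changed can therefore not be read from these counts.

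SNORA47, an H/ACA RNA within ZBED3, was nearly absent from 1 line. In KG-1a it stood at 12.1, 13.8 and 10.5 CPM and in MOLM-14 at 4.06, 7.25 and 6.28 CPM under pioglitazone, darglitazone and DMSO. In MV4-11 it stood at 2.84, 1.096 and 1.24 CPM, and in OCI-AML3 at 0.876, 0.0474 and 0.164 CPM. The listed values of the 4 lines did not overlap. The OCI-AML3 pioglitazone and darglitazone values lie below the floors of those libraries, 2.63 and 0.142 CPM. Under pioglitazone, OCI-AML3 can therefore not be told apart from the lower MV4-11 values. It was higher in KG-1a by 3.40 ± 0.38 on the log2 scale (SE; edgeR adjusted p = 3.16e-06) and fell by 4.95 ± 0.65 in OCI-AML3 against the mean of the other 3. The size of that fall is uncertain, since it rests in part on values below the floor. SNORA47 met the membership rule through the lines where it was higher, so its OCI-AML3 p-value is not given. Its host ZBED3, a zinc finger gene, stood at 10.8, 11.3 and 10.8 CPM in KG-1a, at 7.91, 8.53 and 11.0 CPM in MOLM-14, at 0.775, 2.65 and 2.59 CPM in MV4-11, and at 0, 0.474 and 0.164 CPM in OCI-AML3. The order of the lines was the same for the host, although its KG-1a and MOLM-14 libraries overlapped.

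SNORA74B, within the vacuolar ATPase subunit gene ATP6V0E1, was a KG-1a feature. It stood at 6.13, 7.52 and 5.42 CPM in KG-1a under pioglitazone, darglitazone and DMSO, and at 0 to 1.81 CPM in the other 9 libraries. The log2 difference was 3.33 ± 0.46 (SE; edgeR adjusted p = 2.14e-05). ATP6V0E1 itself ran from 121 to 137 CPM in KG-1a and from 42.1 to 75.5 CPM elsewhere, a log2 difference of 1.16 (edgeR adjusted p = 5.31e-07). SNORA26, in an intron of the noncoding host DANCR, went the other way. It stood at 0.603, 0.209 and 0.565 CPM in KG-1a under pioglitazone, darglitazone and DMSO, at 0.516, 1.34 and 0.724 CPM in MV4-11, at 3.42, 4.91 and 3.07 CPM in MOLM-14, and at 4.38, 4.08 and 6.38 CPM in OCI-AML3. All MOLM-14 and OCI-AML3 libraries were above all others, and the KG-1a difference was −2.33 ± 0.55 on the log2 scale (SE). No KG-1a library reached 10 counts of SNORA26, so it became a member through the lines where it was higher. Its p-value is not given for that reason. DANCR was at 20.7 to 27.0 CPM in KG-1a and at 56.9 to 103 CPM elsewhere.

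SNORD17, an unusually long C/D RNA that guides 28S rRNA methylation, was higher in KG-1a, while its host was lower there than the mean of the other lines. It stood at 115, 109 and 119 CPM in KG-1a under pioglitazone, darglitazone and DMSO, and at 43.6 to 104 CPM in the other 9 libraries, of which the OCI-AML3 pioglitazone library was the highest. The ranges did not overlap, and the log2 difference was 0.89 ± 0.18 (SE; edgeR adjusted p = 0.00101). The host SNX5, a sorting nexin, stood at 82.9, 69.2 and 58.0 CPM in KG-1a under pioglitazone, darglitazone and DMSO, against 71.1 to 78.6 CPM in MV4-11, 99.8 to 101 CPM in MOLM-14 and 136 to 179 CPM in OCI-AML3. Its KG-1a and MV4-11 libraries overlapped, and against the mean of the other 3 lines it fell by 0.59 on the log2 scale (edgeR adjusted p = 7.42e-04).

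**Figure D2:**
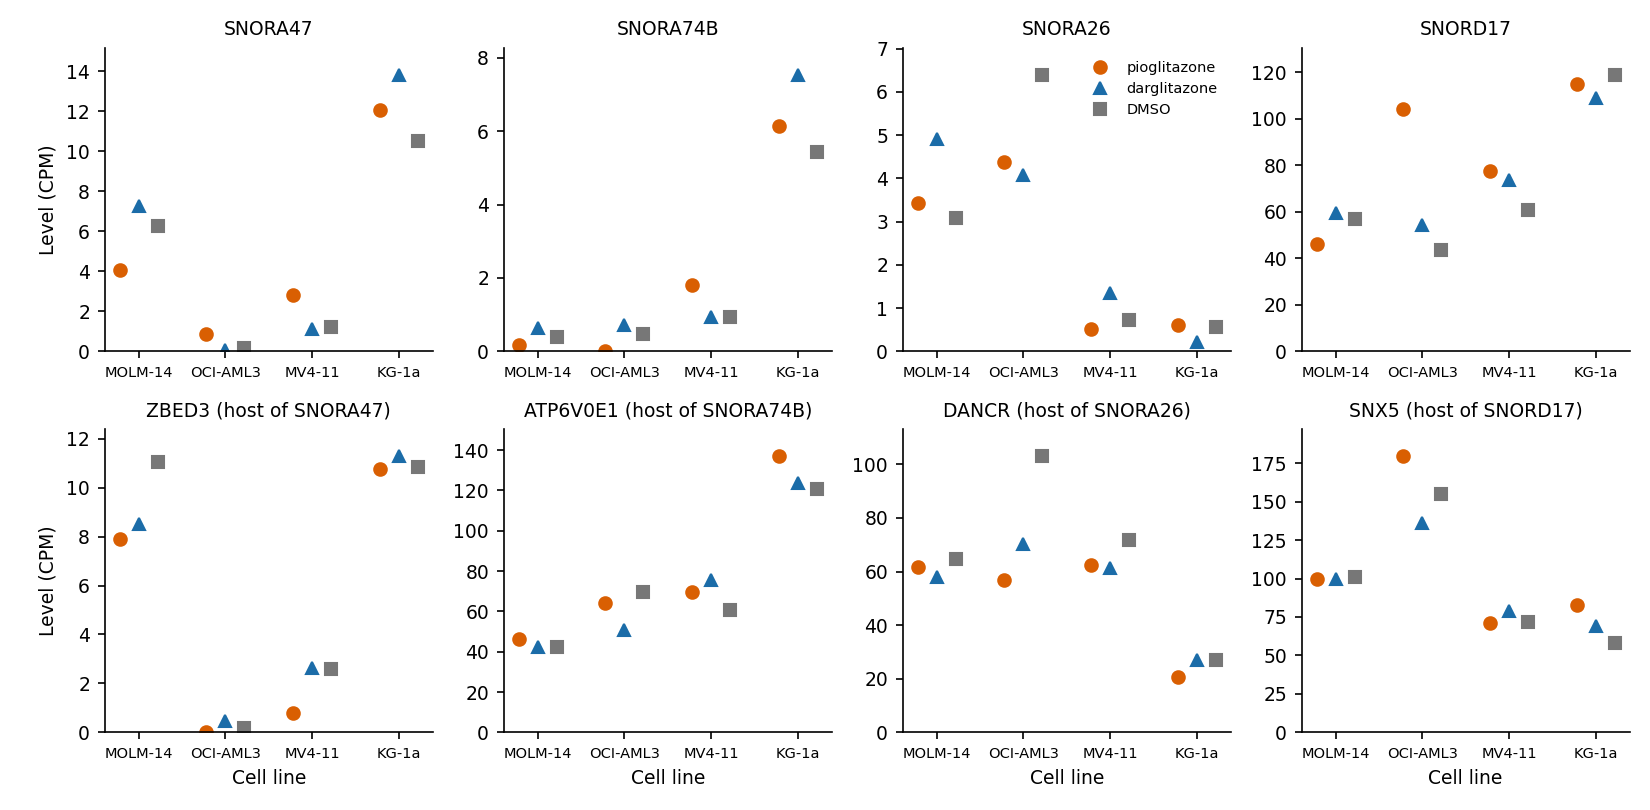
Levels in CPM of SNORA47, SNORA74B, SNORA26 and SNORD17 (upper row) and of their host genes (lower row) in each of the 12 libraries, by cell line. SNORA47 and ZBED3 are both listed near 0 in OCI-AML3. The SNORA47 value of 0.876 CPM under pioglitazone lies below that library's floor of 2.63 CPM. SNORD17 is at 109 to 119 CPM in KG-1a while SNX5 is at 58.0 to 82.9 CPM there.

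Further SNORA members were higher in KG-1a. SNORA5C and SNORA5A share the host TBRG4. SNORA5C stood at 12.8, 12.1 and 19.6 CPM in KG-1a under pioglitazone, darglitazone and DMSO, and at 2.63 to 8.43 CPM in the other 9 libraries. SNORA5A averaged 8.72 ± 3.08 CPM in KG-1a, against 4.36 ± 0.745 CPM in MOLM-14, 3.47 ± 0.690 CPM in MV4-11 and 1.69 ± 0.753 CPM in OCI-AML3 (SD, n = 3 libraries each). The KG-1a libraries of both RNAs were above all others, with log2 differences of 1.47 ± 0.23 and 1.49 ± 0.32 (SE; edgeR adjusted p = 6.95e-05 and 0.00125), while TBRG4 differed by 0.14 (edgeR adjusted p = 0.274). SNORA21, in the ribosomal protein gene RPL23, was higher by 2.11 (edgeR adjusted p = 0.00328), and RPL23 was lower by 0.21 on the log2 scale in KG-1a (edgeR adjusted p = 0.0405). SNORA2C, in KANSL2, was higher by 1.40 (edgeR adjusted p = 0.00931, and 0.114 without the KG-1a DMSO library), and KANSL2 differed by 0.02 (edgeR adjusted p = 0.932).

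SNORD13, which has a gene of its own with no spanning host, was the abundant C/D RNA called higher in KG-1a beside SNORD17. It stood at 284, 294 and 270 CPM in KG-1a under pioglitazone, darglitazone and DMSO. In the other 9 libraries it ran from 26.9 to 64.5 CPM, apart from 163 CPM in the OCI-AML3 pioglitazone library. It was higher in KG-1a by 2.49 ± 0.40 on the log2 scale (SE; edgeR adjusted p = 0.00157). SNORD94, a guide for U6 spliceosomal RNA, was higher by 1.69 (edgeR adjusted p = 0.00559, and 0.168 without the KG-1a DMSO library). On the other side, SNORD116-13 and SNORD116-3, copies from the imprinted SNHG14 locus, were lower in KG-1a by 2.27 and 2.61 on the log2 scale (edgeR adjusted p = 0.00901 and 0.0434). Without the KG-1a pioglitazone library the first had an adjusted p of 0.066 by edgeR, and without the KG-1a darglitazone library the second had one of 0.181. SNHG14 fell in KG-1a by 1.45 on that scale (edgeR adjusted p = 1.31e-06). The Cajal body RNA SCARNA12 was higher in KG-1a by 0.64 (edgeR adjusted p = 9.90e-04).

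OCI-AML3 was the line with more SNORD members called higher (5) than lower (1) of 29, beside 23% and 19.4% of all genes, while its SNORA members were 2 higher and 4 lower of 51. SNORD104, a 28S rRNA methylation guide in SNHG25, stood at 10.5, 10.1 and 5.77 CPM in OCI-AML3 under pioglitazone, darglitazone and DMSO, at 4.89 to 6.29 CPM in MOLM-14 and at 2.59 to 3.36 CPM in MV4-11 and KG-1a. Its OCI-AML3 and MOLM-14 libraries overlapped, and the log2 difference for OCI-AML3 was 1.26 ± 0.30 (SE; edgeR adjusted p = 0.00316). SNORD60 was higher in OCI-AML3 by 1.72 (edgeR adjusted p = 0.0197, and 0.260 without the OCI-AML3 DMSO library). In MV4-11 it was lower by 2.62 on the log2 scale, at 0.904, 0.213 and 0.310 CPM under pioglitazone, darglitazone and DMSO. No MV4-11 library reached 10 counts of SNORD60, so it became a member through the other lines and its MV4-11 p-value is not given. SNORD12C, from ZFAS1, was higher in OCI-AML3 by 1.37 (edgeR adjusted p = 0.0233, and 0.193 without the OCI-AML3 DMSO library), and SNORD94 was lower there by 2.21 on the log2 scale (edgeR adjusted p = 0.00712). SNORA8, in TAF1D, was lower in MOLM-14 by 3.34 on the log2 scale, with 0.812, 0.533 and 0.231 CPM there under pioglitazone, darglitazone and DMSO, and 0.621 to 28.0 CPM in the other libraries. Its MOLM-14 darglitazone and DMSO values rest on fewer than 10 counts. SNORA8 became a member mainly through the other lines, so its MOLM-14 p-value is not given.

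The members' differences between lines were set beside those of their hosts. Over 78 member and host pairs with both tested (57 hosts), the log2 difference of KG-1a from the other lines had r = 0.676 between the snoRNA and its host (Spearman's rho = 0.653), 0.785 for the 45 pairs with the snoRNA in an intron of every host transcript and 0.482 for the 33 that overlap an exon. The same r was 0.454 for OCI-AML3, 0.386 for MOLM-14 and 0.107 for MV4-11, with Spearman's rho of 0.215, 0.298 and 0.204. The snoRNA and its host shared a sign in 47.4% of pairs for KG-1a, 61.5% for OCI-AML3, 44.9% for MOLM-14 and 55.1% for MV4-11. Pairs share libraries, depth and, for snoRNAs of 1 host, the host value, so these are descriptions without a test. For KG-1a the value rested in part on 1 library: r was 0.449 without the KG-1a pioglitazone library and 0.379 without that library and the OCI-AML3 pioglitazone library. Despite the correlation the levels were shifted: of the 21 members called higher in KG-1a, 6 had a host called higher, 9 had a host that was not called, 5 had a host called lower and 1 had none. Of the 7 called lower, 4 had a host called lower.

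**Figure D3:**
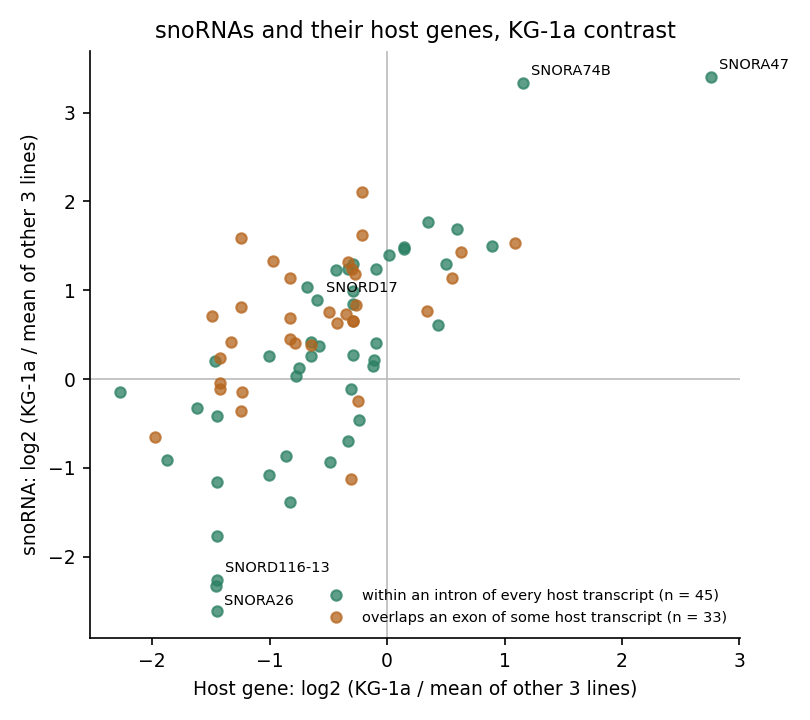
Log2 difference of KG-1a from the mean of the other 3 lines for each snoRNA (vertical axis) and its host gene (horizontal axis), 1 point per pair, 45 in introns and 33 overlapping exons. SNORA47 lies at the top right, with 3.40 against 2.76 for ZBED3, and SNORD17 lies above 0 with its host SNX5 at −0.59.

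Summed over a class, the snoRNA level varied more between libraries of 1 treatment than between treatment means. The 52 SNORA members summed to 2626, 1474 and 682 CPM in OCI-AML3 under pioglitazone, darglitazone and DMSO, to 903, 1068 and 1022 CPM in MOLM-14, to 1256, 1216 and 945 CPM in MV4-11 and to 1177, 1759 and 1706 CPM in KG-1a. The 30 SNORD members summed to 4459, 1770 and 1308 CPM in OCI-AML3, to 956, 1236 and 1200 CPM in MOLM-14, to 1853, 1944 and 1490 CPM in MV4-11, and to 3175, 2653 and 2365 CPM in KG-1a. The OCI-AML3 pioglitazone library was the highest of the 12 in both classes, and the treatment groups overlapped in both. The mean log2 ratio to DMSO over the 4 lines was 0.41 ± 1.09 for SNORA and 0.54 ± 0.88 for SNORD under pioglitazone, and 0.40 ± 0.50 and 0.26 ± 0.18 under darglitazone (SD, n = 4 lines). Without OCI-AML3 the pioglitazone means were −0.10 for SNORA and 0.14 for SNORD, and the darglitazone mean for SNORA was 0.16. The darglitazone sums were above the DMSO sums in all 4 lines for both classes. For SNORA this rested on the 3 most abundant members: without them the log2 ratio was −0.11 in MOLM-14 and −0.14 in KG-1a.

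The ratio of the SNORA to the SNORD sum ran from 0.371 in the KG-1a pioglitazone library to 0.945 in the MOLM-14 pioglitazone library. In MOLM-14 it was 0.945, 0.864 and 0.852 under pioglitazone, darglitazone and DMSO, above the other lines in each treatment. In KG-1a it was 0.371, 0.663 and 0.721, in OCI-AML3 0.589, 0.833 and 0.521, and in MV4-11 0.678, 0.625 and 0.634. The ratio turned on the few abundant members: without the 3 highest members of each class it ran from 1.26 in OCI-AML3 DMSO to 2.16 in KG-1a DMSO, and KG-1a had the highest ratio under darglitazone and DMSO.

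**Figure D4:**
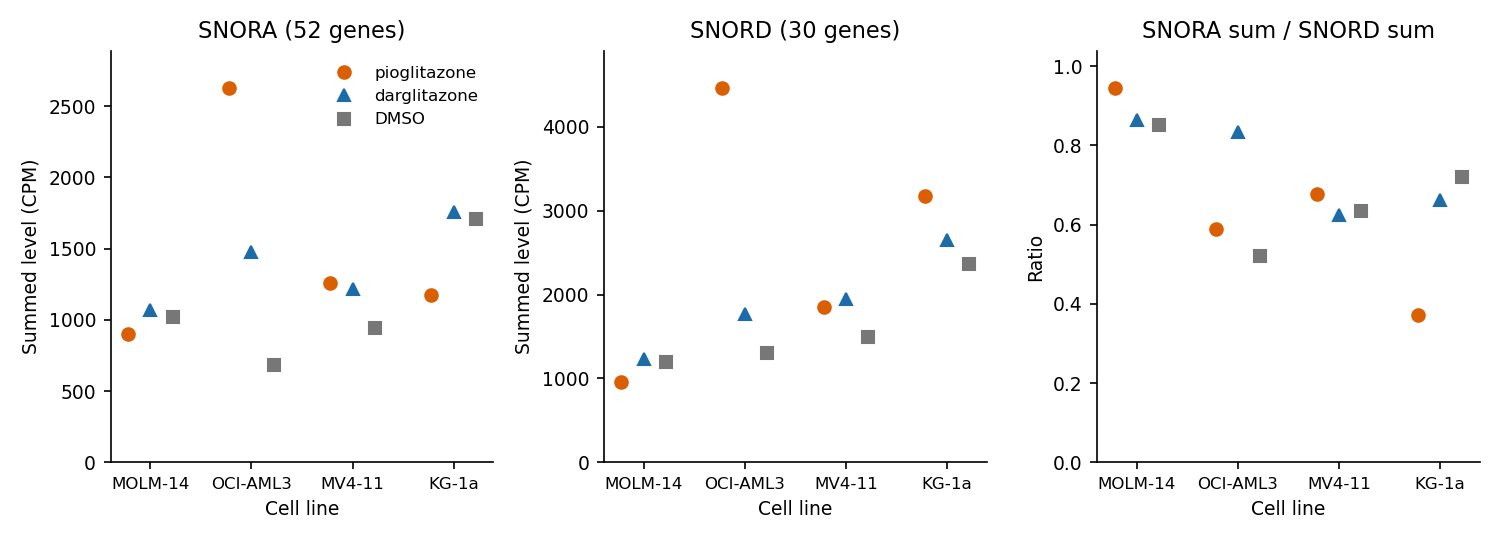
Summed level in CPM of the 52 SNORA and 30 SNORD members and the ratio of the sums in each of the 12 libraries, by cell line. The OCI-AML3 pioglitazone library stands highest in both classes, at 2626 and 4459 CPM, and the KG-1a pioglitazone library has the lowest ratio, 0.371.

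No member passed the threshold for pioglitazone against DMSO: 0 of 84, beside 0% of all 15424 genes (edgeR quasi-likelihood test, Benjamini-Hochberg adjusted p under 0.05). At an unadjusted p under 0.05 there were 4 members (4.76%), beside 5.96% of all genes. The numbers were 0 and 1 member for darglitazone against DMSO, beside 0% and 3.4% of all genes, and 0 and 2 members for darglitazone against pioglitazone, beside 0% and 3.51%. For the mean of both drugs against DMSO they were 0 and 1, beside 0% and 4.86%. limma-voom also called 0 of the 84 members in each of these 4 contrasts. DESeq2 called 0 as well, but its own filter left 75 of the 84 members without an adjusted p in every contrast except darglitazone against DMSO, and for pioglitazone it called 74 of all genes. With no filter on low counts, edgeR called 5 members for pioglitazone, SNORD3A, SNORD13, SNORA48, SNORA8 and SNORA17B (ENSG00000280496), among 223 of 34975 genes. The members' changes were measured coarsely, with a median SE of 0.57 on the log2 scale for pioglitazone against 0.24 for all genes tested.

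The median log2 change under pioglitazone was 0.24 for SNORA and 0.50 for SNORD members, beside −0.02 for all genes tested, with 39 of 51 and 21 of 29 above 0. Both medians depended on OCI-AML3: without its pioglitazone library they were −0.04 and 0.06, and without its DMSO library −0.05 and 0.28. Under darglitazone the medians were 0.20 and 0.24, beside 0.01 for all genes, and 0.02 and −0.01 without the OCI-AML3 DMSO library. Darglitazone and pioglitazone were compared with the same DMSO libraries. Directly between the drugs, darglitazone minus pioglitazone had medians of −0.07 for SNORA and −0.15 for SNORD, beside 0.03 for all genes.

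By line, the median differences from DMSO varied in size and sign. Against DMSO of the same line, the median log2 difference of the 52 SNORA members under pioglitazone was 1.94 in OCI-AML3, 0.39 in MV4-11, −0.43 in MOLM-14 and −0.50 in KG-1a. For the 30 SNORD members it was 1.68, 0.31, −0.29 and −0.08 in the same lines. Under darglitazone the SNORA medians were 1.11 in OCI-AML3, 0.43 in MV4-11, −0.09 in MOLM-14 and −0.21 in KG-1a, and the SNORD medians 0.35, 0.37, −0.06 and 0.15. The OCI-AML3 pioglitazone library had the highest CPM of the 12 for 42 of the 84 tested members, 26 SNORA and 16 SNORD, while it was the highest for 12.5% of all genes tested. That library is the shallowest and its ribosomal entry stood at 6.17%, and the part of both in these values was not tested. A test of whether the mean drug response differs between lines called 0 of 84 members, beside 0.00648% of all genes (edgeR, 3 residual degrees of freedom), and 12 members had an unadjusted p under 0.05 (14.3%, beside 3.05% of all genes).

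**Figure D5:**
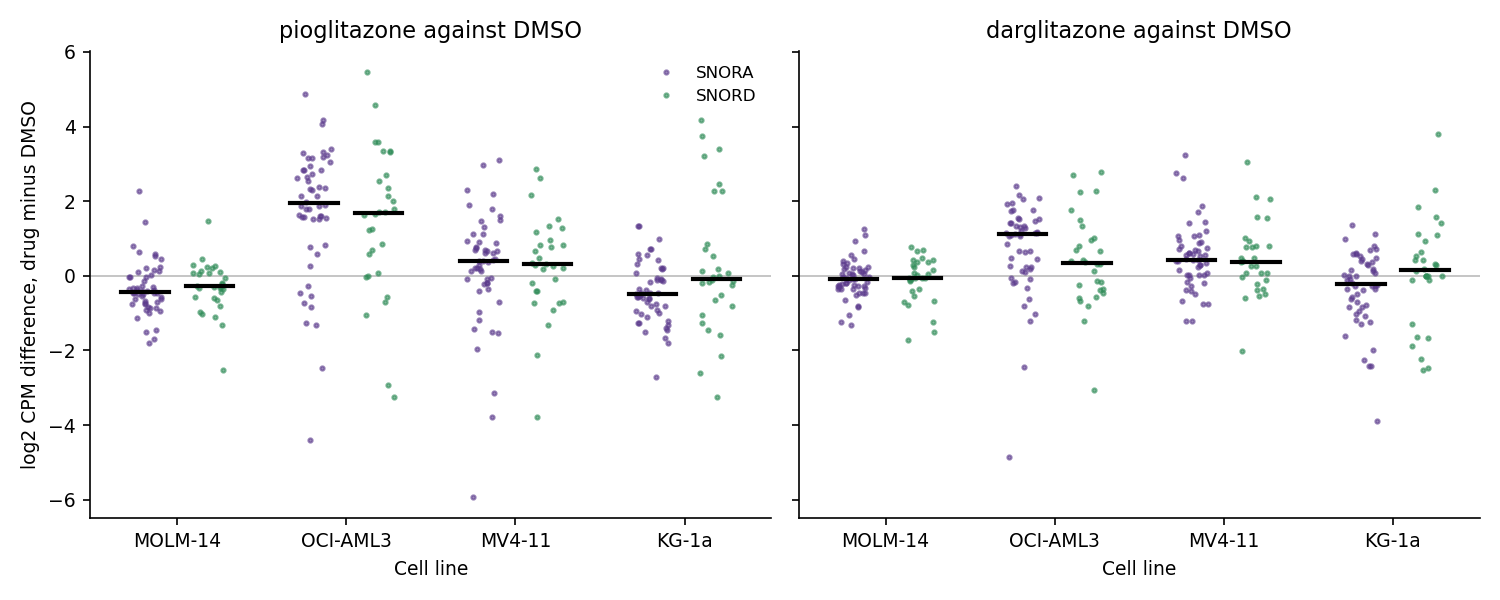
Log2 CPM difference from DMSO of the same line for each of the 52 SNORA and 30 SNORD members, by cell line, under pioglitazone (left) and darglitazone (right); bars are medians. The OCI-AML3 medians under pioglitazone, 1.94 and 1.68, lie above those of the other lines, and the medians of MOLM-14 and of KG-1a under pioglitazone lie below 0.

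SNORD8, a C/D RNA in CHD8, was the 1 member with an unadjusted p under 0.05 for darglitazone (edgeR) and 1 of the 4 for pioglitazone. It had 10 counts in just 6 libraries, of which 5 were drug libraries and 1 was a DMSO library, so it entered the members through the groups where it was higher and its p-values are not given. It stood at 1.29, 0.385, 3.50 and 1.91 CPM under pioglitazone in MV4-11, MOLM-14, OCI-AML3 and KG-1a, at 0.822, 0.320, 0.616 and 2.93 CPM under darglitazone, and at 0.207, 0.364, 0.0447 and 0.113 CPM under DMSO. Every pioglitazone value was above the DMSO value of its line, although the MOLM-14 values were close. Of the 84 members tested, 3 (3.57%) were higher in all 4 lines under pioglitazone, beside 5.87% of all genes. SNORA8 had 1.95 ± 0.78 for pioglitazone (edgeR adjusted p = 0.822), and among the members with values below 0, SNORD22, in SNHG1, had −1.31 ± 0.69. SNORD22 had the smallest p between the drugs: it stood at 4.39, 1.67, 1.94 and 3.31 CPM under darglitazone in KG-1a, MV4-11, OCI-AML3 and MOLM-14, and at 0.704, 0.516, 0.876 and 1.71 CPM under pioglitazone. Each darglitazone value was above the pioglitazone value of its line, with a log2 difference of 1.88 ± 0.72. The pioglitazone values in KG-1a, MV4-11 and OCI-AML3 rest on fewer than 10 counts. SNORD22 thus met the membership rule mostly outside the pioglitazone group, and its p-values are not given. The OCI-AML3 pioglitazone values of SNORD22 and SNORD8 rest on 0.743 and 3.99 estimated counts.

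Of a list of snoRNAs that act on the ribosomal RNA precursor other than as guides of methylation or pseudouridylation, 9 of the 17 genes in the table were members, namely 4 SNORD3 genes, SNORA73A, SNORA73B, SNORD13, SNORD22 and SNORD118. In neither drug contrast was any of the 11 listed genes tested past the threshold, and 9 had a value above 0 for pioglitazone and 8 for darglitazone, with medians of 0.53 and 0.36. Values above 0 were had by 72.6% and 70.2% of all members tested, and by 46.5% and 51.0% of all genes. The 4 SNORD3 genes are near-identical copies. Under pioglitazone the log2 ratio of the SNORD3 sum to DMSO was 1.76 in OCI-AML3, 0.52 in KG-1a, 0.31 in MV4-11 and −0.32 in MOLM-14. SNORA73A had 0.24 ± 0.31 for pioglitazone and 0.36 ± 0.30 for darglitazone, and SNORA73B 0.47 ± 0.41 and 0.37 ± 0.40 (log2, SE). SNORA73A stood at 383, 451 and 393 CPM in MOLM-14, at 855, 662 and 300 CPM in OCI-AML3, at 473, 461 and 389 CPM in MV4-11 and at 419, 752 and 710 CPM in KG-1a under pioglitazone, darglitazone and DMSO. Its darglitazone value was above the DMSO value in all 4 lines, and its pioglitazone value in 2. Of the 84 members tested, 9 (10.7%) were higher in all 4 lines under darglitazone, beside 7.07% of all genes. SNORD3A had 0.61 ± 0.33 for pioglitazone and 0.24 ± 0.32 for darglitazone, with 95% intervals from −0.17 to 1.39 and from −0.52 to 1.003. SNORD118, the U8 RNA, ran from 0.616 to 3.95 CPM. Between the lines 5 of the 11 were called, beside 72.6% of all genes.

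Of the snoRNAs linked to lipid toxicity or cholesterol traffic in hamster and mouse cells, SNORD33 and SNORD60 were members, 2 of 6 in the table. SNORD33, a C/D RNA of the RPL13A introns, stood at 34.1, 4.98 and 0.669 CPM in OCI-AML3 under pioglitazone, darglitazone and DMSO, at 2.22, 2.56 and 2.74 CPM in MOLM-14, at 10.6, 5.76 and 4.14 CPM in MV4-11 and at 2.71, 7.52 and 7.57 CPM in KG-1a. The lines went both ways under pioglitazone, with a log2 change of 1.21 ± 1.04 (SE; edgeR adjusted p = 0.936). SNORD60 had 0.50 ± 0.63 for pioglitazone and 0.50 ± 0.60 for darglitazone. Of 11 AML-linked snoRNAs in the table only SNORD104 was a member, with 0.24 ± 0.33 and 0.26 ± 0.32. Of 112 genes of the imprinted clusters, 5 were members, all SNORD116 copies.

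The proteins that hold the snoRNAs were expressed in every library, and none passed the threshold in a drug contrast: 0 of 4 box C/D proteins, 0 of 4 box H/ACA proteins and 0 of 13 assembly factors were called for pioglitazone or for darglitazone. The C/D proteins FBL, the methyltransferase, and SNU13 had values of −0.28 ± 0.11 and −0.32 ± 0.14 for pioglitazone (log2, SE; edgeR adjusted p = 0.806 and 0.822). Between KG-1a and the other lines, 2 of the 4 C/D proteins were called, beside 54% of all genes: FBL and the C/D core protein NOP58 were lower by 0.71 and 0.54 on the log2 scale (edgeR adjusted p = 6.35e-05 and 0.00218), NOP56 and SNU13 were not called, and none of the 4 H/ACA proteins DKC1, GAR1, NHP2 and NOP10 was called, with a median of −0.11. FBL stood at 97.5, 121 and 129 CPM in KG-1a under pioglitazone, darglitazone and DMSO, against 106 to 255 CPM in the other lines.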

How the data were processed

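RNA of 12 libraries (4 lines, 3 treatments, 1 library each) was prepared with a strand-marked total RNA kit and ribosomal depletion, per the labels. The authors deposited estimated counts per transcript, not normalized. The submitters' processing notes name fastp, FastQC, STAR, featureCounts, DESeq2 and GRCh38, with no versions, and the program that estimated the counts was not stated in any source at hand. Of the 203027 transcripts, 202941 matched GENCODE 29 and were summed per gene, and the sums were rounded. Total counts per library ran from 1.095 M to 64.2 M.

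edgeR 4.0.16 in R 4.3.3 fitted cell line and treatment to all 12 libraries (TMM scaling, filterByExpr by line with a minimum count of 10, robust quasi-likelihood test), and p-values were adjusted by Benjamini-Hochberg over 15424 genes with a threshold of 0.05. CPM are TMM-scaled, log2 CPM use a prior count of 2, and a CPM floor is 3 counts. Libraries of 1 line share the line, so they are paired by it: their deviations from the treatment means correlated at 0.596 to 0.851 over all genes tested. Over the members alone the correlations were lower, from 0.0792 to 0.746. The SE of a log2 change is its size over the square root of the F value. Wilson intervals and floors cover counting error only. The intervals of a log2 change are built on the SE of the fit, which also takes in the spread between libraries. DESeq2 1.42.0, limma 3.58.1, other scalings, other filters, thinned counts and left-out libraries were alternatives. The fit was tested on simulated data.

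Members and lists were chosen with earlier results of these data known. Named are the members past the threshold (at most the 10 smallest p in a direction, or, with none, the 5 smallest p each way), the 5 highest per class per kb, those nearest the membership threshold, listed snoRNAs, and host genes. Host genes are the same-strand genes that span a member.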

Additional observations from a re-analysis of the deposited data

Results flagged for a closer look

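In 11 of 114 groups of 4 lines under 1 treatment, the highest line stood apart from the other 3 by more than Dixon's 95% limit. The groups came from class sums and from members named here, many of them named because the lines differed in these data. The count can therefore not be set against a chance rate. KG-1a stood apart under DMSO for SNORD3A (1882 CPM), SNORD13 (270.2 CPM), SNORD94 (8.81 CPM), SNORA74B (5.42 CPM), SNORA5A (12.0 CPM), SNORA5C (19.6 CPM) and SNORA21 (7.23 CPM). It stood apart under darglitazone for SNORD13 (294 CPM), SNORA74B (7.52 CPM) and SNORA71D (14.2 CPM). OCI-AML3 stood apart under pioglitazone for SNORA73B (954 CPM), in the shallowest library.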

How the results depend on the processing

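The drug contrasts gave 0 members past the threshold in each alternative tried (with 75 of 84 members given no adjusted p by DESeq2 in 3 of the 4), apart from fits with no filter on low counts, where edgeR called 5 for pioglitazone and 1 for the mean of both drugs. For the 25 members that differed between lines, the count was 38 with limma-voom, 41 with no filter, 12 with thinned counts, and 10 (without KG-1a) to 36 (without OCI-AML3) when a library or line was left out. The test of line by drug called 6 with no filter and 0 to 1 with a library left out. With no filter the counts were 20 for MOLM-14 and 8 for MV4-11. With thinned counts they were 4 for MOLM-14, 6 for OCI-AML3, 2 for MV4-11 and 13 for KG-1a. With a library left out they were 3 to 21 for MOLM-14, 2 to 7 for MV4-11 and 14 to 38 for KG-1a. A count of 10 in all 12 libraries kept 35 members. The host correlation for KG-1a was 0.379 without the pioglitazone libraries of KG-1a and OCI-AML3 and 0.449 to 0.699 with 1 library left out. SNORA79B reversed between darglitazone and pioglitazone without those 2 libraries, at 0.083 on the log2 scale. The shares of all genes called are not given for these settings, so the changes in count cannot be read as particular to the members. The cause of these changes was not tested.

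Cell line served as the replicate block. Without the block the drug contrasts again had 0 members past the threshold. Contrasts of 1 line were not run with DESeq2, limma-voom or a line left out. Low depth limits weak members most, and in the OCI-AML3 pioglitazone library a level under 2.63 CPM rests on fewer than 3 counts.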

Other observations

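Other short structured RNAs went both ways in the OCI-AML3 pioglitazone library, in which the SNORA and SNORD sums were highest. RN7SK, which holds back transcription elongation, stood at 14332, 21316 and 20765 CPM in OCI-AML3 under pioglitazone, darglitazone and DMSO, and RPPH1, the RNA of RNase P, at 2424, 4525 and 4570 CPM. For both the pioglitazone library was the lowest of the line. For the spliceosomal RNAs RNU4-2 and RNU11 it was the highest, with 151, 7.73 and 27.2 CPM for RNU4-2 and 13.1, 8.30 and 4.38 CPM for RNU11. Among the members, SCARNA10 and SCARNA12 summed to 94.6, 122 and 150.1 CPM, while all genes of the scaRNA type summed to a log2 ratio of 0.04 for pioglitazone over DMSO in that line.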
